A study of Mus musculus with 3 samples.

Results

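The 300 promoters described here made their contacts from 10 kb to 1 Mb mostly with 1 flank of the chromosome. That range held a median of 35.7% of their events in cis. They were selected on the measured contacts themselves. A viewpoint, the captured DpnII fragment at a promoter, was considered if it was not on chromosome X, lay over 1 Mb from both chromosome ends and had at least 1000 cis ligation events summed over the libraries. Its events from 10 kb to 1 Mb from its midpoint were summed on each side, and viewpoints were ranked by the share of the larger side, called the stronger side below. The top 300 of the 6437 viewpoints that met these conditions were taken, 4.66% of them. The capture listed 7197 viewpoints in all.

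Promoters in mammalian nuclei contact sequence mainly within their own topologically associating domain, a stretch whose loci meet each other more often than they meet the flanking sequence. Cohesin extrudes chromatin loops that stop at CTCF proteins bound in a convergent orientation, and the edges of domains often hold CTCF sites and promoters of widely expressed genes. A fragment near such an edge is known to share a domain with sequence on 1 side of it only. Capture-C measures this from a chosen fragment: chromatin is cut, joined by proximity ligation, and the junctions of the captured fragment are sequenced.

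Contacts were measured in nuclear-titrated Capture-C libraries of mouse erythroid cells, of which 3 were deposited, all of 1 group. The donors were F1 hybrids between C57BL/6 and CBA/J mice, made anaemic with phenylhydrazine, which destroys red cells and fills the spleen with their precursors. Phenylhydrazine was given in 3 doses 12 h apart, each labelled as 40 mg per g of body weight, and spleens were taken on day 5. The CD71+ ter119+ cells, ter119 being an erythroid surface antigen, were enriched on beads against ter119. The group has no control or second cell type, the age of the mice is not in the labels, and the cell type cannot be checked against expression markers in contact data. The columns of the libraries carry no sample names, so they are called a, b and c and serve as replicates without a number. They held 18230099 to 34428035 cis events. From 10 kb to 1 Mb the events of libraries b and c on single fragments varied less than counting noise would make them, at a chi-square of 0.815 per fragment where noise gives 1. Their sides differed slightly more than that, with 1.05 per viewpoint over all viewpoints and 1.21 over the 300 promoters, against 1.46 and 1.90 between a and b. To be careful, b and c were averaged and counted once in each SD, which leaves n = 2. The tests and intervals of single promoters sum all 3 libraries. They count b and c both and do not cover differences between libraries. Nothing in the labels says that the libraries came from separate animals, so errors and p-values describe these libraries. Binomial intervals of single promoters cover counting error only. Those over sets of promoters take the promoters as independent, although neighbours share flanking sequence.

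The sequences of 3 viewpoints of high rank are shown first, since the contacts below are counted from these fragments. They were read from the mm9 genome on the + strand, with the DpnII site GATC in capitals and without the bases annotated as untranslated. The Eif4enif1 stretch lies at chr11:3102156-3102394, where the Eif4enif1 fragment spans an exon of Eif4enif1, which encodes a transporter of the translation factor eIF4E, and an intron of Drg1. The Hist1h4i stretch, at a histone H4 gene, lies at chr13:22133222-22133456. The Hist1h2bj_Hist1h2ag stretch, between genes for histones H2B and H2A, lies 1.61 kb from it in midpoint distance at chr13:22134819-22135057. Their GC contents were 62.8%, 49.8% and 42.3%.
Eif4enif1: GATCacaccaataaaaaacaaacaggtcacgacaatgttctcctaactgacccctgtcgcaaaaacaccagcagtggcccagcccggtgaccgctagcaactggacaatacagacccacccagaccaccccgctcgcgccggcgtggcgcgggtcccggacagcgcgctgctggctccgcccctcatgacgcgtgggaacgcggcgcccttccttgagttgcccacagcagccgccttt
Hist1h4i: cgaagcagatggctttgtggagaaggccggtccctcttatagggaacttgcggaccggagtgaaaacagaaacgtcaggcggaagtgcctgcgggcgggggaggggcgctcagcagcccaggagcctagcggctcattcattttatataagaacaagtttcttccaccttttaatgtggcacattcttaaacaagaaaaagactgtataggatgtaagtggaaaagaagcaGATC
Hist1h2bj_Hist1h2ag: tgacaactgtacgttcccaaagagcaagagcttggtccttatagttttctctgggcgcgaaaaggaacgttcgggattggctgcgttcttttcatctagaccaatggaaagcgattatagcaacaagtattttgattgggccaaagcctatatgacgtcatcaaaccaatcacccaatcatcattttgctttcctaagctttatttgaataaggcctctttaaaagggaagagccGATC

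The larger side held a median of 77.5% of the events of the 300 promoters, with a range from 74.1% to 93.6%. The median over all 6437 viewpoints was 57.7%. These shares chose the promoters and are a description without a test. The libraries had medians of 78.1% (a), 77.2% (b) and 77.7% (c), which gave 77.8% ± 0.433 (SD, n = 2). The same side was the larger in every library for all 300, and 298 held over 70% of their events there in each library. The lowest share in a single library was 66.0%, in library a. It was the right (toward higher coordinates) at 157 promoters and the left at 143. Sequencing depth was near that of the rest: the promoters had a median of 6307 cis events, from 1038 to 297296, against 6821 over all viewpoints.

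**Figure D1:**
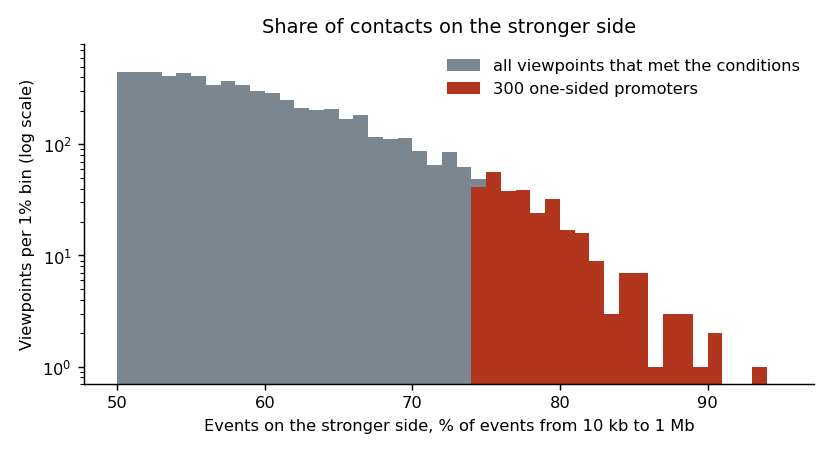
Share of the events from 10 kb to 1 Mb that lay on the larger side (x axis, percent) for all 6437 viewpoints and for the 300 with the largest share, counted per bin on a log y axis. The selected promoters start at 74.1% and thin out toward 93.6%, while the median over all viewpoints is 57.7%.

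The limit of rank 300 cut through a continuous distribution. The last promoters inside were Dcbld2 (74.2%), Rnf6 (74.1%) and Hspa4l (74.1%), which encodes a heat shock protein. The first outside were 1810013L24Rik, Eef1e1 and Ppan, each at 74.1%. The counting error of a single promoter is wider than these steps: the exact 95% interval of Hspa4l ran from 71.7% to 76.5%.

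The largest share belonged to Eif4enif1, with 315 events on the left and 4576 on the right. Its share of 93.6% (exact 95% interval 92.8% to 94.2%) rested on 92.7% (a), 92.7% (b) and 95.0% (c). The value has to be read with the assembly: 89.8% of the bases within 1 Mb on the left of Eif4enif1 are unsequenced in mm9, and the first sequenced base lies 102 kb away. Events there could not be listed. From 10 to 100 kb, short of that gap, 87.5% of 2525 events lay on the right. Clcn4_Mir5620 followed on chromosome 7, with 467 events on the left and 49 on the right, a share of 90.5%. Its libraries gave 91.3%, 90.5% and 89.9%, and 10.0% of its right side was unsequenced. Fragments with any listed contact from 10 kb to 1 Mb numbered 2151 on its left and 570 on its right.

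Both histone promoters shown above leaned to the left. Hist1h4i had 4243 events on the left and 469 on the right, 91.0%, 90.3% and 89.2% in libraries a, b and c. Hist1h2bj_Hist1h2ag had 4109 and 605, or 86.4%, 88.7% and 86.1%. Neither side has unsequenced bases. Zmat2, a zinc finger gene of chromosome 18, had 1655 events on the left and 218 on the right (88.4%). Dtwd2, also on chromosome 18, leaned to the right with 1705 events against 213 (88.9%). Cd24a, which encodes the heat-stable antigen of blood cell surfaces, had 1963 events on the right and 274 on the left, with 87.5%, 88.0% and 87.7% in the libraries.

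The other promoters among the 12 of highest rank were Gm5885, C130026I21Rik, Uqcrb_Gm10767, Galt_a and 6330408A02Rik_Lig1. Uqcrb, a subunit of respiratory complex III, shares its fragment with Gm10767 and had 968 events on the right and 135 on the left. Its libraries differed more than those of the histone promoters, at 84.0%, 90.4% and 87.2%, a mean of 86.4% ± 3.40 (SD, n = 2). Galt_a, at the gene for galactose-1-phosphate uridylyltransferase, had 6220 events on the left and 956 on the right (86.7%). Its value has to be read with the fragments that had any listed contact from 10 kb to 1 Mb. These numbered 2364 on its left and 594 on its right, where 5% of the bases within 1 Mb were unsequenced. Gm5885, C130026I21Rik and 6330408A02Rik_Lig1 drew a large part of their events from a single fragment, which is treated next.

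At 20 of the 300 promoters (6.67%) a single fragment held over 10% of all events in the range, against 42 of all 6437 viewpoints (0.652%). In 19 of the 20 this fragment shared at least 1 identical word of 30 bases with the viewpoint itself, as did 35 of the 42. Among the other 280 promoters the strongest fragment shared such a word in 3. Reads from near-identical copies can be placed at the wrong copy, so a copy is noted where such promoters are named below. The identical stretch is shown for Gm5885 and Olfr1318, with all 60 printed bases found unchanged at both places, read from the mm9 + strand outside annotated untranslated sequence. They were picked after their values were seen. The Gm5885 viewpoint stretch at chr6:133479242-133479301 matches chr6:133242269-133242328 in an exon of 5530400C23Rik, within an identical run of 131 bases. The Olfr1318 stretch at chr2:111996371-111996430 matches chr2:111982365-111982424 in the coding exon of Olfr1317, within a run of 187 bases.
Gm5885: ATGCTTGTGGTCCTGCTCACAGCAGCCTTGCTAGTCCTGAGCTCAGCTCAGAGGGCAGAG
Olfr1318: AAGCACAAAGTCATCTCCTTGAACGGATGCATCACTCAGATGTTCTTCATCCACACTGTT

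Olfr1318, an olfactory receptor gene, had the most events of all selected promoters, 297296 in cis. Of its events in the range, 60.8% lay in the single Olfr1317 fragment 14.0 kb away. Without the strongest fragment on each side its share went from 79.2% to 47.2%, so its larger side changed. Gm5885 drew 57.5% of its events from the 5530400C23Rik fragment 237 kb away and kept a share of 75.3% without it. The pattern recurred between gene copies: Apol9b with a fragment in Apol9a (51.6% of events), Apol11b with Apol11a (35.3%), Rsph3a with Rsph3b (47.6%), Slc22a5 with Slc22a21 (35.1%) and Zfp943_Zfp942 with Zfp944 (39.6%). The exception without a shared word was Hist1h2bq_Hist1h2ap_Hist1h2ao, where a fragment in the exon of Hist1h2bq held 22.3%. Without the strongest fragment on each side, 287 of the 300 still had over 70% on the stronger side and 6 fell under 60%. Besides Olfr1318 these were Zfp975 (52.8%), Rsph3a (53.1%), Apol9b (57.1%), AI987944 (59.0%) and Zfp994 (59.7%). The median over all 300 was then 77.2%.

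Unsequenced bases bear on fewer of the promoters. Over 10% of the bases within 1 Mb on either side were unsequenced at 12 of the 300 promoters, against 144 of all 6437 viewpoints. At C130026I21Rik the gap took 92.4% of the other side, at Nmt2 79.9%, at Ighmbp2_Mrpl21 71.7% and at Pop4 70.0%. The median share without the 12 was 77.5%, as with them. Both properties occur together at C130026I21Rik, which shared words with a fragment 161 kb away that held 27.9% of its events. C130026I21Rik had 51.2% of 1755 events on its stronger side from 10 to 100 kb. From 100 kb to 1 Mb it had 100% of 5456 there.

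**Figure D2:**
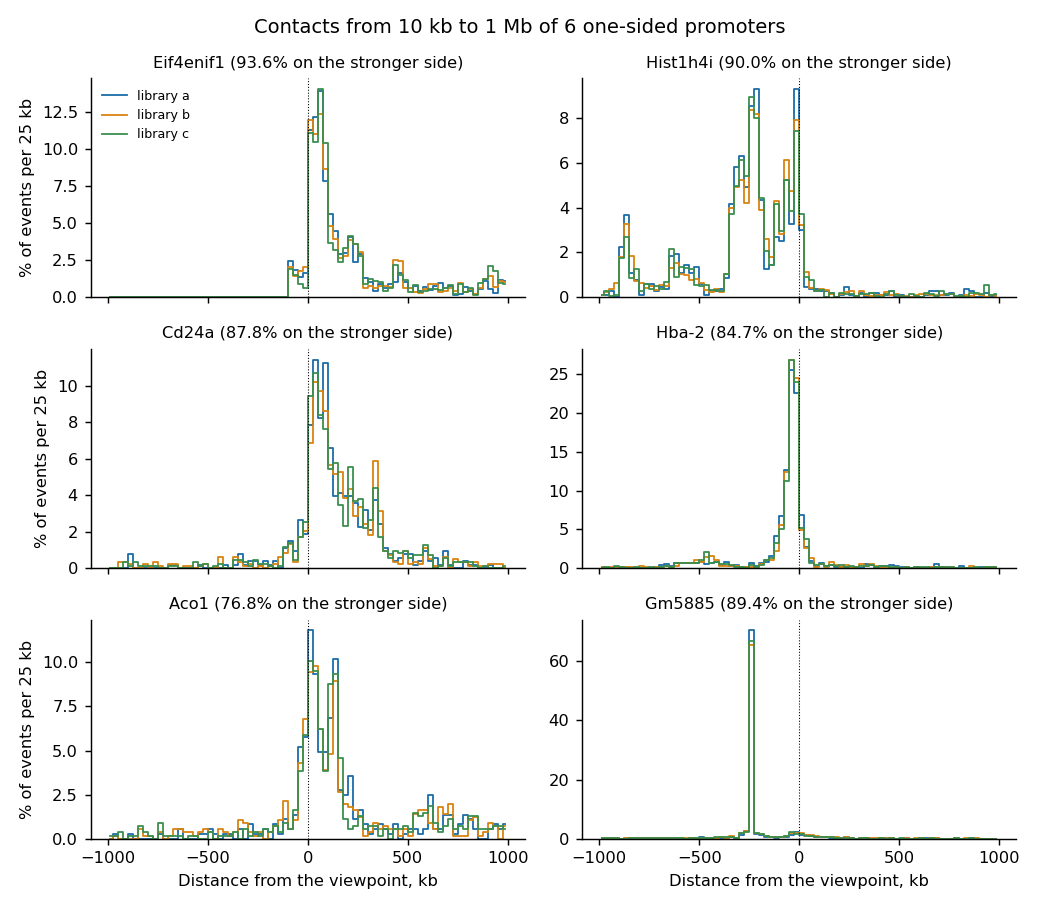
Events in bins of equal width along both flanks of 6 promoters as percent of the promoter's events from 10 kb to 1 Mb (y axis), against the distance from the viewpoint in kb (x axis, negative to the left); lines are libraries a, b and c, each as percent of its own events. Hist1h4i and Hba-2 have most events on the left and Cd24a and Aco1 on the right in all 3 libraries, Eif4enif1 has none beyond the end of the sequenced bases on its left, and Gm5885 shows the single fragment 237 kb away.

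The asymmetry grew with distance up to the range of 251 to 398 kb. From 10 to 15.8 kb, the median promoter had 59.5% of its events on the stronger side, from 25.1 to 39.8 kb 68.1%, and from 63.1 to 100 kb 80.5%. It reached 87.0% from 251 to 398 kb and was 79.7% from 631 kb to 1 Mb. Over all viewpoints the median was highest from 158 to 251 kb, at 62.6%. Taken from 10 to 100 kb, the median of the 300 promoters was 70.0%, and from 100 kb to 1 Mb 84.2%. The same side was stronger in both ranges at 292 promoters. From 10 to 100 kb the other side was the stronger at 5, namely 6330408A02Rik_Lig1, Apol9b, Zfp943_Zfp942, Rsph3a and Zfp263. From 100 kb to 1 Mb it was the stronger at Slfn3, Zfp975 and Olfr1318. Of these 8, all but Zfp263 had a single fragment with over 10% of their events.

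The stronger side was also the one along which contacts ran farther. The median distance of the events was 142 kb on the stronger side and 59.8 kb on the other side, in the median promoter. Over all viewpoints these medians were 139 and 105 kb, so the 2 groups differed in how short the other side was. The median distance was longer on the stronger side at 255 promoters (85.0%) against 67.1% of all viewpoints. These values come from the range that chose the promoters and carry no test.

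**Figure D3:**
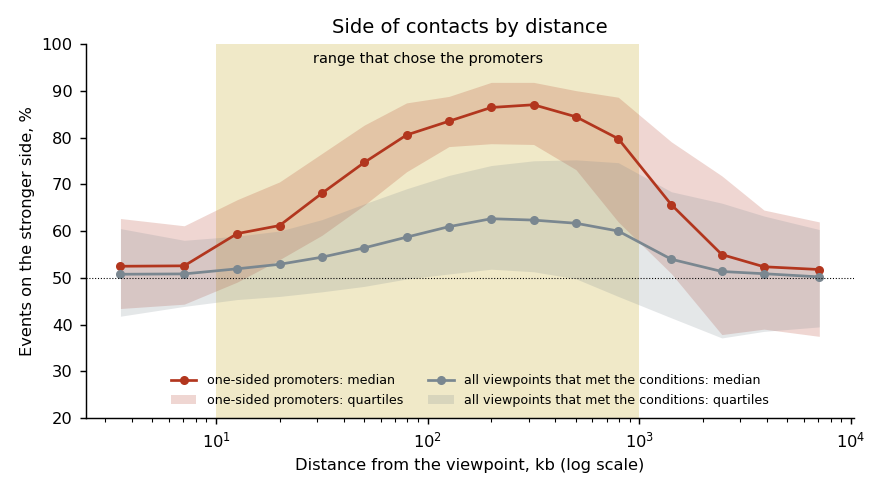
Median share of events on the stronger side (y axis, percent) by distance from the viewpoint (x axis, log scale) for the 300 promoters and for all viewpoints, with bands from the lower to the upper quartile; the range that chose the promoters is shaded. The promoters' curve climbs from 52.5% below 5 kb to 87.0% at 251 to 398 kb and returns to 52.4% from 3 to 5 Mb.

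Distances outside 10 kb to 1 Mb were not used for the choice and could be tested. From 1 to 5 Mb, 278 of the promoters lay far enough from both ends, with 75 to 34239 events each. The stronger side held significantly more events at 162 of them, 58.3%, where 45.1% of all 5876 viewpoints tested did. The other side held more at 67, 24.1%, against 31.9%. The calls used a two-sided exact binomial test per viewpoint against 50%, adjusted over all viewpoints after Benjamini and Hochberg, and asked for the same side in each library. The median share was 58.4%, against 52.5% over all viewpoints. It fell with distance from 65.6% at 1 to 2 Mb to 55.0% at 2 to 3 Mb and 52.4% at 3 to 5 Mb. Other settings were added after the data were seen. With the expected share set by the fragments listed on each side, the count was 162 again (58.3%, against 43.3%). Without promoters next to large unsequenced stretches it was 157 of 270 (58.1%, against 45.0%).

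Among the 278 tested, the promoters with the most one-sided far contacts were Pop4, Acot13_Tdp2, Kcnn4, Cnot1_4930513N10Rik and Api5. At Pop4, a subunit of ribonuclease P, all 727 events from 1 to 5 Mb lay on the left, but 100% of the bases on its right at that distance are unsequenced. Of the others, Kcnn4 has 2.5% unsequenced bases on its other side from 1 to 5 Mb. Kcnn4 encodes the calcium-activated potassium channel known as the Gardos channel of red cells. It had 89.1% of 860 far events on the stronger side, 87.4%, 89.5% and 89.3% in libraries a, b and c (adjusted p = 2.79e-130, exact binomial test). Api5, an inhibitor of apoptosis, had 85.7% of 754 events there, with 91.3%, 82.7% and 84.9% in the libraries. Cnot1_4930513N10Rik, at the scaffold subunit of the CCR4-NOT deadenylase, had 86.0% of 3912 events.

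In the opposite direction stood Cnnm2, Specc1_a, 2210406O10Rik_Grpel1, Dtd2 and Hnrnpul1. Cnnm2 had 74.9% of its events up to 1 Mb on the right but 16.0% of 75 events from 1 to 5 Mb (adjusted p = 3.51e-09, exact binomial test). Grpel1 is a cochaperone of the mitochondrial matrix, and its shared promoter 2210406O10Rik_Grpel1 had 23.4% of 1655 far events on its stronger side, 21.0%, 23.1% and 25.3% in the libraries. Both histone promoters behaved alike: Hist1h4i had 26.4% of 2174 far events on its stronger side and Hist1h2bj_Hist1h2ag 25.5% of 2156. Galt_a had 26.3% of 6589. For these promoters the side favoured within 1 Mb and the side favoured beyond it were opposite in all 3 libraries.

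Close to the promoter the sides were nearly even. From 2.5 to 10 kb the median share was 53.3%, against 50.9% over all viewpoints. Calls on the stronger side numbered 108 of 300 promoters, 36.0%, where 28.9% of all viewpoints were called. The other side was called at 58, 19.3%, against 22.6%. The promoters had a median of 384.5 events in this range. The most one-sided values included Clcn4_Mir5620 (94.4%) and Eif4enif1 (90.1%, adjusted p = 7.36e-94, exact binomial test), whereas Zfp994, a promoter with a copy, had 21.5% on its stronger side. The stronger side was called both close and far at 65 of the 278 promoters tested for both, 23.4%, against 13.4% of all viewpoints.

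Contacts captured from other promoters give another view of the same places. Events of other viewpoints, 10 kb to 1 Mb away, were counted on the fragments 1 to 2 places from each promoter and divided by the events expected from the distance and from each source's total. Sources on both sides with enough events existed for 133 of the 300. The median ratio was 2.17 for sources on the stronger side and 1.33 for sources on the other side. Over all viewpoints the ratios were 1.55 and 1.40. Calls on the stronger side numbered 33, 24.8%, against 10.8% of the 4615 viewpoints tested, and the other side at 5, 3.76%, against 4.18%. Selected promoters served as sources for each other here, with events that the choice had used. Without them as sources the stronger side was called at 20 of 97, 20.6%, against 10.4%. The counts rest on a median of 72 events and fell when a library was left out, as did those over all viewpoints. Without library b, 17 of 118 were called (14.4%, against 6.76%). The count was 20 of 119 without library c (16.8%, against 6.35%) and 25 of 127 without library a (19.7%, against 8.17%).

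The promoters called from the stronger side included Zmat2, where sources on the left gave 66 events, 3.24 times the expected count, and sources on the right 3 events, 0.598 times (adjusted p = 0.00578, exact binomial test). Cd24a had ratios of 6.99 and 0.863. Mynn, a zinc finger gene, had 5.20 and 0.210. The largest ratio, 388 at Zfp758_Zfp944, is tied to a copy: the strongest fragment of Zfp943_Zfp942, with 5205 events, lies next to the Zfp758_Zfp944 fragment and shares words with its source. The 5 called from the other side were Hist1h2bq_Hist1h2ap_Hist1h2ao, U2surp, Thoc1, Ccnb2 and Imp3. Without a deeply captured stretch of chromosome 9 the count was 2 of 128 (1.56%, against 3.68% of all viewpoints). The stronger side was called at all 3 measures, far, close and from other promoters, at Slc25a39, Bloc1s4, Dnaaf2, 4930502E09Rik_Dhrs11 and Rsph3a. These are 5 of the 126 tested on all, 3.97%, against 1.36% of all viewpoints, and Rsph3a is a promoter with a copy, whose share without the strongest fragments was 53.1%. Slc25a39, a mitochondrial carrier linked to heme synthesis, had 62.3% far, 60.9% close, and ratios of 2.29 and 0.876.

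Contacts that pass over the promoters were fewer than expected. For sources within 250 kb on 1 side, the events landing within 250 kb on the opposite side were compared with those expected from the distance. Sources on both sides were pooled. At 147 promoters (49.0%, against 14.5% of all viewpoints) no viewpoint lay within 1 Mb on the other side. Any ratio there rests on sources of the stronger side alone. The promoters and all viewpoints thus differ in the directions pooled, and what this adds to the ratios was not tested. The median ratio was 0.670 over the 271 promoters with enough events, with quartiles of 0.467 and 0.990. Over all 5681 viewpoints it was 1.01, with quartiles of 0.809 and 1.23. The ratio was under 1 at 207 promoters (76.4%), against 48.6% of all viewpoints. By library the median was 0.650 (a), 0.665 (b) and 0.678 (c), a mean of 0.661 ± 0.0149 (SD, n = 2). With other selected promoters left out as sources it was 0.623, and within 100 kb it was 0.793 against 0.998 over all viewpoints. No test was run, since neighbouring promoters share sources. Some of the promoters share sources with each other, and 29 had too few to give a ratio.

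Low ratios, named after the values were seen, were found at Psmd7, a proteasome subunit (0.237 from 158 events), Hist1h2bj_Hist1h2ag (0.263 from 851), Zmat2 (0.272 from 311) and Hist1h4i (0.282 from 912). Other selected promoters were not left out as sources of these single ratios. The lowest, 0.168, was at Olfr1318, which has the copy in Olfr1317. At the other extreme, Apol11b had 3.51 from 75697 events, and the contacts of Apol9b with the Apol9a fragment pass over it. Cd24a had 1.12. A strongly one-sided profile of the promoter itself thus occurred with ratios on both sides of 1.

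**Figure D4:**
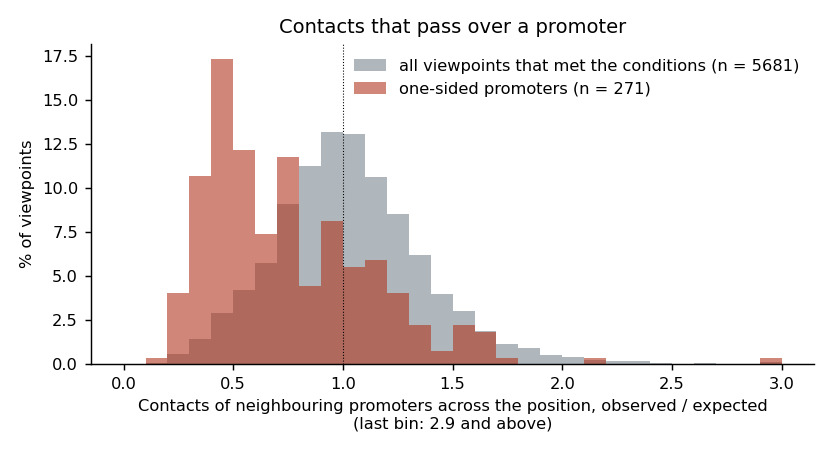
Ratio of observed to expected events that pass over a promoter within 250 kb (x axis, the last bin holding all higher values) for the 271 promoters and all 5681 viewpoints with enough events, as share of each group (y axis, percent). The promoters' median is 0.670 and that of all viewpoints 1.01, and the promoters' values spread on both sides of 1.

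The stronger side was the side with more genes. Viewpoints and gene starts were counted on each side from 2.5 kb outward, so closer neighbours did not enter these counts. More of the other viewpoints lay within 1 Mb on the stronger side at 275 of the 300 promoters, 91.7% (exact 95% interval 87.9% to 94.5%), against 65.9% of all viewpoints. With 1 promoter kept from neighbours within 1 Mb that had the same stronger side, the count was 219 of 238 (92.0%, against 65.7%). A median of 7 viewpoints lay on the stronger side and 1 on the other, against 6 and 4. On the other side no viewpoint lay within 1 Mb at 147 promoters, 49.0%, against 14.5% of all viewpoints. At 3 promoters the stronger side was empty of viewpoints. The nearest viewpoint lay a median of 63.1 kb away on the stronger side and 858 kb away on the other. Annotated starts of protein-coding genes gave the same picture without the choice of viewpoints: more lay on the stronger side at 254 promoters (84.7%, against 63.6%), with medians of 17 and 7. Within 100 kb the viewpoint count was higher on the stronger side at 158 promoters (52.7%, against 39.6%), equal at 109 and lower at 33.

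Single cases show the contrast. Hist1h4i had 20 viewpoints on its stronger side and 0 on the other from 2.5 kb to 1 Mb. Hist1h2bj_Hist1h2ag, 1.61 kb away on the other side, was too close to be counted. Api5 had 5 and 0, the nearest on the other side being 7240 kb away. Aco1 had 9 and 0, with 16 and 1 gene starts. Cd24a went the opposite way, with 2 viewpoints on the stronger side and 4 on the other, as did Klf3 with 2 and 6 and Olfr1318, with its copy, with 0 and 6.

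Base composition differed between the sides in the same direction. GC content within 1 Mb was higher on the stronger side at 228 promoters, 76.0% (exact 95% interval 70.8% to 80.7%), against 59.1% of all viewpoints, with medians of 44.6% and 41.8%. With 1 promoter kept from neighbours within 1 Mb that had the same stronger side, the count was 182 of 238 (76.5%, against 58.9%). Kcnn4 had 50.8% and 41.7%, and D2hgdh 47.7% and 40.1%. More fragments with any listed contact lay on the stronger side at 248 promoters (82.7%, against 64.1%). The contacts of any viewpoint put a fragment on the list, the promoter's own among them. This count therefore rests partly on the events that chose the promoters. Divided by the listed fragments, the median share of the larger side was 75.9%, against 57.2% over all viewpoints. Gene density, GC content and the number of listed fragments move together along the genome, and their part in the shares was not tested.

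**Figure D5:**
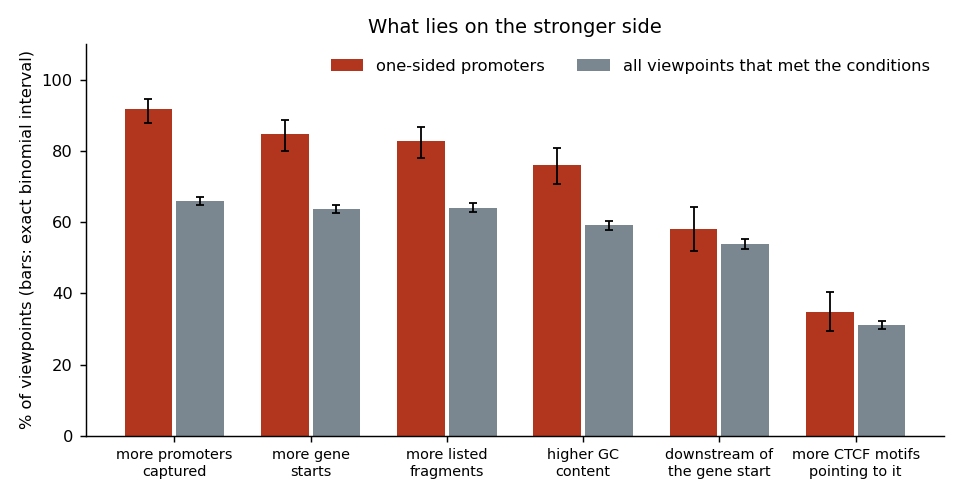
Percent of promoters with more viewpoints, more gene starts, higher GC content or more listed fragments within 1 Mb on the stronger side, with the stronger side downstream, or with more CTCF matches within 10 kb pointing to it (y axis, from 0), for the 300 promoters and all viewpoints; error bars are exact 95% binomial intervals. Viewpoints stand at 91.7% against 65.9%, while the direction of transcription stands at 58.2% against 53.9% and CTCF matches at 34.7% against 31.0%. Listed fragments include those contacted by the promoter itself, with events that the choice had used. The intervals take neighbouring promoters as independent. Viewpoints and gene starts under 2.5 kb away were not counted.

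The direction of transcription differed less between the groups. Among the 251 promoters whose named genes lie on 1 strand, the stronger side was downstream at 146, 58.2% (exact 95% interval 51.8% to 64.3%), against 53.9% of all viewpoints. A further 39 had genes on both strands and 10 had a name without a match in the annotation table. The interval holds the value of all viewpoints, but it takes neighbouring promoters as independent. With 1 promoter kept from neighbours within 1 Mb that had the same stronger side, the share was 60.5% of 200 (53.4% to 67.3%), against 53.9%.

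CTCF binds a long motif with a direction, and a match was read from the mm9 sequence as 12 bases of its core, on both strands, with the + strand match pointing right. Within 1 kb of the fragment, 55 promoters (18.3%) held a match, against 15.7% of all viewpoints. The matches pointed to the stronger side only at 27, to the other side only at 21 and both ways at 7, or 9%, 7% and 2.33%, against 7.88%, 6.93% and 0.886% of all viewpoints. Within 10 kb of the midpoint, more matches pointed to the stronger side at 104 promoters (34.7%) and more to the other side at 80 (26.7%), with 116 equal. Over all viewpoints these shares were 31.0% and 30.1%. Within 50 kb the order turned, with 113 promoters (37.7%) toward and 131 (43.7%) away, as it did over all viewpoints (41.0% and 43.6%). A match is a string of letters and not a bound site. Matches near promoters of high rank are printed on the strand they were found on, given with the mm9 position, with the core in capitals. The first 3 point to the stronger side and the others to the other side, and Gon4l holds both kinds, close together. The 12 core bases are identical in the - strand match of Gon4l and those of Slc3a2, Galt_a and Sbds_Tyw1, and their flanks are alike. Whether these are copies of a repeat was not tested. Repeats were not marked, so the counts above include any matches inside them.
Gon4l, chr3:88638494-88638523 (- strand): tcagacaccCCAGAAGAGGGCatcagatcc
Twistnb, chr12:34114346-34114375 (- strand): gaggtttgaCCAGCAGAGGGCtgctgctct
Slc3a2, chr19:8789237-8789266 (+ strand): tcagatgtaCCAGAAGAGGGCgtcagaact
Galt_a, chr4:41700911-41700940 (+ strand): tcagacacaCCAGAAGAGGGCaacagaccc
Gon4l, chr3:88638455-88638484 (+ strand): acccagcaaCCACAAGGTGGCtcacgacca
Sbds_Tyw1, chr5:130731867-130731896 (+ strand): tcaaacgcaCCAGAAGAGGGCatcagatcc

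The match at Twistnb, a subunit of RNA polymerase I, and that at Sbds_Tyw1, at the gene of a ribosome maturation factor, lie inside the viewpoint fragment. Twistnb had 81.5% of its events on the left, to which its match points. Sbds_Tyw1 had 82.8% on the left, and its match points to the right. Slc3a2, the heavy chain of amino acid transporters, had 80.8% on the right, to which its match points. Gon4l drew 43.3% of its events from a single fragment in Syt11 that shares words with it, and had 72.5% without the strongest fragments.

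Neighbouring promoters often leaned together. Joined where they lay within 1 Mb and had the same stronger side, the 300 formed 238 loci, of which 188 held 1 promoter and 50 held the other 112. Members of a locus share some or most of their flanking sequence and are not independent. All 50 pairs of neighbouring selected promoters within 100 kb had the same stronger side, as had 78.7% of the 3411 neighbouring pairs among all viewpoints. Within 1 Mb, 62 of 79 pairs had the same side, 16 faced each other and 1 faced away. Over all 5816 pairs the shares were 69.4%, 18.3% and 12.2%. The sides come from the counts that chose the promoters, whereas the pairs among all viewpoints include many with shares near 50%. Higher agreement among the selected pairs is thus partly fixed by the choice, and no test was run.

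The largest locus lay on chromosome 12, where Rps29, Lrr1, Mgat2_Rpl36al, 9330151L19Rik and Dnaaf2 all leaned to the right over 39.4 kb of midpoints. Rps29 and Rpl36al encode ribosomal proteins and Dnaaf2 a factor of ciliary dynein assembly. Rps29, the leftmost, had 0 gene starts from 2.5 kb to 1 Mb on its left and 23 on its right. The share was 82.4% at Rps29 and 83.2% at Lrr1, 78.0% at Mgat2_Rpl36al, 78.4% at 9330151L19Rik and 77.2% at Dnaaf2. 9330151L19Rik had a lower share in library a (68.1%) than in b (78.6%) and c (79.6%). Passing contacts had ratios of 0.303 at Rps29 and 0.373 at Lrr1, but 1.06 and 1.07 at 9330151L19Rik and Dnaaf2 at the right end of the locus. A similar gradient was seen on chromosome 19, where Slc3a2, Snhg1_Slc3a2, Wdr74 and Stx5a leaned to the right over 27.3 kb. Their passing ratios were 0.469, 0.698, 0.946 and 0.988 from left to right, and their shares 80.8%, 82.3%, 76.8% and 74.8%. In both loci the promoter farthest from the stronger side had the lowest ratio. Selected promoters of the same locus served as sources for these ratios, with events that the choice had used. The gradients are therefore not independent of the choice. On the other side the nearest viewpoint lay 3986 kb from Rps29 and 1156 kb from Slc3a2. At Lrr1 the 1 viewpoint there lay 9.29 kb away, under the 10 kb that sources needed. The ratios of these 3 thus rest on sources of the stronger side alone, and what this adds to the gradients was not tested.

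On chromosome 1, Dtymk, Ing5 and D2hgdh leaned to the left within 24.1 kb. There the lowest passing ratio was at D2hgdh, the rightmost (0.491), while Dtymk and Ing5 had 0.982 and 0.968. Selected promoters of the locus were sources here too. On the other side of D2hgdh the nearest viewpoint lay 1488 kb away, so its ratio rests on sources of the stronger side alone. On chromosome 13, Hist1h2bq_Hist1h2ap_Hist1h2ao, Hist1h4i and Hist1h2bj_Hist1h2ag leaned to the left over 209 kb. Hist1h3h, 116 kb to the left of the first of these, had 2416 events on the right and 726 on the left, so that it and the 3 faced each other across the cluster.

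Other pairs that faced each other were Zfp994 and Zfp758_Zfp944 (136 kb apart) and Rab5a and Sgol1 (209 kb). Rab5a, a GTPase of early endosomes, had 586 events on the right and 195 on the left. Sgol1, a protector of centromeric cohesin, had 331 on the left and 69 on the right. Sgol1 varied between libraries (77.2%, 86.4% and 82.8%), with few events. Neither had another viewpoint within 1 Mb on its other side. Zfp994 is a promoter with a copy.

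Erythroid genes were found among the promoters in small numbers. Of 4 globin viewpoints 2 were selected, of 11 of heme synthesis 0 and of 13 of iron handling 1. Of 25 viewpoints of erythroid transcription factors 3 were selected, and of 10 of erythropoietin signalling and survival 3. The last 3 are Pim1 and the adjacent fragments Bcl2l1_a and Bcl2l1_b of 1 gene. Over all viewpoints 4.66% were selected. These lists are short and were drawn up with earlier results of these data known, so they are counts without a test.

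Hba-2, whose fragment lies in the exon of the adult alpha-globin gene annotated as Hba-a2, had 2836 events on the left and 512 on the right. Its libraries gave 84.1%, 85.3% and 84.6%. From 1 to 5 Mb it had 66.3% on the same side (adjusted p = 8.31e-10) and from 2.5 to 10 kb 70.9% (adjusted p = 2.56e-16, exact binomial tests). Hbq1a, 3.59 kb away, leaned to the left as well (76.5%). Hbb-b1, in an exon annotated as Hbb-b2, an adult beta-globin gene, had 4746 events on the right and 1303 on the left, or 79.1%, 78.2% and 78.4%. The right is upstream for this gene, which lies on the - strand. Its far contacts leaned the opposite way, with 27.1% of 1860 events on the right, and so did its close ones, with 34.1%. Globin genes occur in near-identical copies, and events may be split between them.

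Zfpm1, also called FOG1 and a partner of GATA1, had 584 events on the right and 144 on the left, with 85.0%, 82.3% and 75.2% in libraries a, b and c. Klf3, a repressor of the Kruppel-like family, leaned to the left at 77.5% and its far contacts to the right, with 25.5% of 377 on the left. Foxo3, a forkhead factor of red cell maturation, leaned to the left at both, at 77.4% and 59.0%. Aco1, the iron regulatory protein 1, had 76.8% on the right and 76.1% of 708 far events there. The adjacent fragments Bcl2l1_a and Bcl2l1_b, at the gene of the survival factor Bcl-xL, had 80.7% and 77.9% on the left. Bcl2l1_b varied from 70.7% in library a to 81.1% in library b. Pim1, a kinase induced by cytokines, had 429 events on the left and 148 on the right, 74.5%, 74.8% and 73.9%.

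Gene families named by symbol were counted in the same way, without a test. Of 193 zinc finger viewpoints (Zfp) 14 were selected (7.25%), of 115 solute carriers 7 (6.09%), of 42 histone viewpoints 4 (9.52%) and of 78 ribosomal protein viewpoints 6 (7.69%). Of 69 mitochondrial ribosomal viewpoints 5 were selected (7.25%), of 44 proteasome ones 3 (6.82%) and of 79 of the respiratory chain 6 (7.59%). Viewpoints with symbols in Rik or Gm gave 19 of 329 (5.78%) and those in Eif 1 of 47 (2.13%). All but the last share lie above the 4.66% of all viewpoints, on small counts. Neighbours count separately, such as Slc3a2 and Snhg1_Slc3a2 or Hist1h4i and Hist1h2bj_Hist1h2ag. Ndufb5_Mrpl47 counts in both the mitochondrial ribosomal and the respiratory chain family. Chromosome 12 had the highest share of its viewpoints selected, 22 of 222 (9.91%), and chromosome 9 the lowest, 9 of 380 (2.37%). Chromosome 9 also holds a stretch captured more deeply, which gave 6 of the promoters out of 158 viewpoints. Sik2, in the list with 113625 cis events, had 30846 events on the left and 9790 on the right (77.6%, 75.2% and 75.5%). Imp3, with 65414 cis events, had 16777 on the right and 5705 on the left (74.1%, 74.7% and 75.0%). At this depth the exact 95% interval of Sik2 was 75.5% to 76.3%, narrower than the spread between its libraries.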

How the data were processed

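The authors trimmed and aligned reads to mm9 with Trim Galore and Bowtie, per the submitters' processing notes (versions not given in the sources used here), and counted unique ligation events between viewpoints and DpnII fragments. The deposited values are a signal, events per 100000 cis events of a viewpoint in a library. For each viewpoint and library the lowest nonzero value was set to 1 event, and 100% of values came out whole within 0.01 reads. Of the listed viewpoints, 8 names stood for 2 viewpoints each, and these 16 were left out, which left 7176 with contacts and a position. Text was stuck to 2 end positions, and 2 ends, which may be the same ones, were set to the next DpnII site.

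Sides were tested per viewpoint with two-sided exact binomial tests on events summed over the 3 libraries, Benjamini-Hochberg adjusted over all viewpoints tested, with adjusted p under 0.05 and the same side in each library required for a call. Expected counts came from the decay over 50 distance bins and needed 10 events. Intervals are Clopper-Pearson at 95%. Sequence and genes came from mm9 (NCBIM37) and GENCODE. Python 3.11.15, numpy 2.4.6, pandas 2.3.3, scipy 1.17.1 and matplotlib 3.10.9 were used. The calling of sides was checked on simulated independent libraries in which most viewpoints had even sides. The sides of the real libraries varied more, so that check covers the calculation only.

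Named promoters were the 12 with the largest share, the 5 with most events, the 5 highest and lowest from 1 to 5 Mb, the 4 closest opposite pairs, the 4 largest loci, the 3 on each side of the limit, those on erythroid gene lists, and those of highest rank with a CTCF match. Others were named after their values were seen. A few of these promoters are not reported here. The selected promoters and the lists were chosen with earlier results of these data known. Alternatives changed the libraries, range, depth, fragments, windows, sources and calls.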

Additional observations from a re-analysis of the deposited data

How the results depend on the processing

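Of the values that carry the comparisons, 59 kept within the limits set (1.5 times for a count, 1 SD for a median) under another setting and 10 moved. Of the selected promoters, 280 to 287 were selected again without 1 library, and 240 to 294 under the other settings except a minimum of 5000 cis events, which kept 185. That minimum leaves out 115 of the promoters, and gave 107 far calls of 170 tested (62.9%, against 48.6% of all viewpoints tested). The far count was 152 to 160 without 1 library (54.7% to 57.6%, against 42.9% to 44.9% of all viewpoints). It was 178 from 1 to 3 Mb (62.5%, against 45.2%) and 133 from 1 to 10 Mb (52.6%, against 43.3%). The close count was 94 to 104 without 1 library (31.3% to 34.7%, against 24.0% to 26.3%). The count called from other promoters was 17 to 25 without 1 library (14.4% to 19.7%, against 6.35% to 8.17%). It was 10 with fragments 1 place away (9.80%, against 3.78%) and 53 with 1 to 5 places (36.8%, against 20.5%). Without other selected promoters as sources it was 20 (20.6%, against 10.4%). The median ratio of passing contacts was 0.623 without such sources and 0.793 within 100 kb. More viewpoints lay on the stronger side at 158 promoters within 100 kb. Olfr1318 was the single named promoter whose larger side turned, to 47.2%, without the strongest fragments, and 42 values of named promoters moved by more than the spread between libraries. The causes were not tested, except where fewer promoters or fragments were counted. Chosen after seeing the data, leaving out fragments 1 to 2 places from any other viewpoint kept 287 promoters with a median share of 77.2%. It gave 163 far calls (58.6%, against 44.9%). Leaving out large unsequenced stretches gave 157 far calls (58.1%, against 45.0%), and setting the expected share by listed fragments gave 162 (58.3%, against 43.3%). No paired analysis was possible because the libraries form 1 group and their columns carry no numbers. Depth limits promoters of few events, such as Specc1_a with 76 far events.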
